A study of Mus musculus with 9 samples.

Results

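The 39 genes described here encode the antioxidant defence of the cell. They cover the regulator NRF2 and its inhibitor KEAP1, glutathione synthesis and use, the thioredoxin and peroxiredoxin systems and the superoxide dismutases. Malic enzyme and enzymes of the pentose phosphate pathway, a supplier of NADPH, are included. The 39 were taken by name, as a list of these pathways, from a table of 51912 genes. All 39 were found, and all 39 passed the filter on low counts that left 17289 genes to be tested.

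RNA sequencing was done on organoids, small epithelial fragments freshly isolated from MMTV-PyMT mouse mammary tumours, in which the MMTV promoter drives the polyoma middle T oncogene in mammary epithelium. The 4 WT samples had the genotype MMTV::PyMT, (R26)pCA::mT/mG and Cdh1+/+, and the 5 E-cad-KO samples had MMTV::PyMT, (R26)pCA::mT/mG and Cdh1fl/fl, where Cdh1 is the gene for E-cadherin. Every sample, WT included, was of strain FVB/NJ, carried the mT/mG reporter, which switches colour in cells where Cre recombinase has acted, was exposed overnight to an adenovirus encoding Cre, and was then held for 48 h in collagen I with FGF2. The labels give no ages and do not name the animals behind the samples, so every p-value given here reflects only how these samples vary. Because Cre came from a virus, cells it did not reach keep Cdh1, and no sample went without Cre.

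Reactive oxygen species arise as by-products of respiration, protein folding in the endoplasmic reticulum and oxidase activity. NRF2 is held low by KEAP1, which hands it to a CUL3 ubiquitin ligase. Electrophiles and peroxides block this, and NRF2 with a small MAF partner then binds antioxidant response elements near genes such as Nqo1, Hmox1 and Gclm. Peroxides are cleared by peroxiredoxins, which draw electrons from thioredoxin, and by glutathione peroxidases, which draw them from glutathione. Both routes are recharged by NADPH from the pentose phosphate pathway and malic enzyme. In mammary tumours these systems are known for supporting the survival of cells that have lost contact with the matrix.

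To set the measured members beside their regulatory sequence, the RefSeq promoter windows on GRCm38.p6, which run from 250 bases before to 50 bases after the start of a RefSeq transcript, were searched on both strands for TGACNNNGC, the core of the antioxidant response element. Of the 39 genes, 33 had an entry. Gsr, Gsta4, Hmox1, Gclc, Prdx6 and Sod3 had none. The core was present for 10 of these 33 genes (30.3%), against 14% of all 27025 genes with an entry. By window it was present in 10 of the members' 42 windows, against 12.4% of all windows of this length. The members were chosen as genes of these pathways, and whether the shares differ was not tested. These 10 matches are shown because they are the members' only matches in the windows. Each is printed 5′ to 3′ on the strand of the gene with the core in capitals and 10 bases on either side. On 7 of them the core lies on the other strand and reads GCNNNGTCA.
Nfe2l2, chr2:75704885-75704913, minus strand: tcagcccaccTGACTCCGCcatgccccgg
Gclm, chr3:122245413-122245441, plus strand: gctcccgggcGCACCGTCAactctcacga
Txnrd1, chr10:82859104-82859132, plus strand: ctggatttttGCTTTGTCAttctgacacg
Srxn1, chr2:152105542-152105570, plus strand: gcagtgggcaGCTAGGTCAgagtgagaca
G6pdx, chrX:74428919-74428947, minus strand: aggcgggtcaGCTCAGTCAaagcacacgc
Pgd, chr4:149166061-149166089, minus strand: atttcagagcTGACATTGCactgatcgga
Me1, chr9:86695902-86695930, minus strand: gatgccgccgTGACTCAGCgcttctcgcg
Prdx1, chr4:116685456-116685484, plus strand: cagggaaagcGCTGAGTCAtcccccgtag
Sod1, chr16:90220696-90220724, plus strand: gccaaggtggGCGTGGTCAgactcaggcc
Mgst1, chr6:138140461-138140489, plus strand: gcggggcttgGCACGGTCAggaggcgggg

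The core for Srxn1, Pgd and Me1 reaches past the RefSeq start of its window, and the other 7 lie before theirs. Such a start can lie inside the gene as GENCODE M21 gives it: the cores of Txnrd1, Srxn1, G6pdx, Pgd, Me1 and Mgst1 lie within the gene's annotated span, and the other 4 before it. Nfe2l2 itself carries one. The 10 genes with the core had a median log2 fold change of -0.14 in E-cad-KO against WT (8 of 10 below 0), and the 23 genes with a window and no match had the same median of -0.14 (20 of 23 below 0). A match is a description of letters, not a mapped binding site, and no binding was measured.

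The windows of Prdx2 and Prdx4, the members with the smallest p-values, and of Nqo1, the classical NRF2 target, held no match. The 250 bases before the RefSeq start are printed here for Prdx4 and Nqo1, so that they can be read beside the values that follow. For Prdx4 this RefSeq start lies inside the GENCODE span of the gene. The Prdx2 stretch is not printed, since it runs through exons of Rnaseh2a on the other strand. Absence of these letters from a window this short says nothing about elements farther away.
Prdx4, chrX:155338461-155338710, minus strand: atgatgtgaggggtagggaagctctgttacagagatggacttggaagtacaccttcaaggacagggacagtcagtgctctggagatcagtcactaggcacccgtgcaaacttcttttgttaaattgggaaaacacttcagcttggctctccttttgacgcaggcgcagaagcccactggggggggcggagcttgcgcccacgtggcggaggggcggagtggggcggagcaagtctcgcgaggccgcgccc
Nqo1, chr8:107403206-107403455, minus strand: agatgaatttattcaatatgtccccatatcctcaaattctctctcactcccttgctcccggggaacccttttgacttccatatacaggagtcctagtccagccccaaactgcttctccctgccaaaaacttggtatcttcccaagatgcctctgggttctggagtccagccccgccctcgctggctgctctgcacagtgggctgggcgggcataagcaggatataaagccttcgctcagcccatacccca

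Before the members, the targeted gene and the make-up of the samples were checked. Expression is given as CPM, counts scaled to a common library size by the TMM method of edgeR. Library totals ran from 44890302 to 64763645 counts. Cdh1 was at 246.5, 150.3, 201.2 and 159.3 CPM in WT 1 to 4 against 86.5, 118.3, 85.2, 87.3 and 79.0 CPM in E-cad-KO 1 to 5, a fall with a log2 fold change of -1.05 (SE 0.16, edgeR adjusted p = 0.0275). The call for Cdh1 was lost without WT 3 (edgeR adjusted p = 0.0904) and without E-cad-KO 1, 3, 4 or 5 (adjusted p of 0.0664, 0.0764, 0.0657 and 0.0644 in turn). The 6 epithelial markers were plentiful, with summed CPM of 3102 to 4279 in WT and 3874 to 4947 in E-cad-KO. Of these 6, 5 stood higher in E-cad-KO, with 0 called and 4 at an unadjusted p under 0.05. Fibroblast markers (8 genes, 6 lower and 0 called) summed to 62.8, 119, 308 and 352 CPM in WT 1 to 4 and to between 126 and 215 CPM in E-cad-KO. Macrophage markers (10 genes, 7 of the 9 tested lower and 0 called) summed to 378 to 532 CPM in WT and 346 to 408 CPM in E-cad-KO. Outside WT 4 most of this sum was Cd14, at 365.1, 391.7, 286.2 and 166.6 CPM in WT 1 to 4 and 257.2 to 366.0 CPM in E-cad-KO. WT 4 stood apart: it had the highest sum of both lists, with 307.5 CPM of the macrophage gene Lyz2 but the least Cd14. Its adipocyte markers summed to 2.37 CPM against at most 0.184 CPM elsewhere. It also had the highest of the 9 values for 13 of the 39 members (33.3%), against 3456 of the 17289 genes tested. Endothelial markers summed to at most 16.4 CPM; all 5 tested were lower, with a median log2 fold change of -0.65, 0 called by edgeR and 2 at an unadjusted p under 0.05 (Pecam1, edgeR adjusted p = 0.118, and Tek, 0.158). The sums were at most 0.14 CPM for red blood cell markers and 0.342 CPM for lymphocyte markers in any library. Of the 13 mitochondrially encoded mRNAs 12 were lower, with a median of -0.11, 0 called and 1 at an unadjusted p under 0.05, and they summed to 63619 to 70452 CPM in WT and 57311 to 70339 CPM in E-cad-KO. Immediate early and heat shock genes summed to 435 to 619.8 CPM in WT and 637 to 785 CPM in E-cad-KO, without overlap. Of these 11 genes 9 were higher, 5 of them at an unadjusted p under 0.05, and Hsph1 was called (log2 fold change 0.71, edgeR adjusted p = 0.0145). The part of these differences in the members' values was not tested beyond the fits named below, and in such whole samples fewer cells of a type and less RNA per cell cannot be told apart.

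In E-cad-KO organoids the antioxidant genes differed from WT by small amounts, mostly downward. Of the 39 genes, 30 were lower and 9 higher in E-cad-KO, with a median log2 fold change of -0.12 and a range from -0.68 to 1.17. Across all 17289 genes tested, 52% were lower and the median was -0.01. Only the peroxiredoxin gene Prdx2 passed the test (edgeR adjusted p under 0.05), and it fell. This 1 call (2.56% of the members) stands against 1.41% of all genes called in either direction and 0.503% called lower, so the share is close to the background. At an unadjusted p under 0.05 there were 9 members lower (23.1%) against 7.99% of all genes, and 1 higher (2.56%), the extracellular superoxide dismutase gene Sod3, against 8.74%. The 2 groups of libraries did not overlap for 4 members that were lower (10.3%; Prdx2, Prdx3, Txn1 and Txn2) against 3.83% of all genes, and for 1 that was higher, Sod3, against 4.28%. Without WT 4, 27 of the 39 were lower, with a median of -0.10. Without both WT 1 and WT 4 it was also 27, with a median of -0.08.

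How these small differences read depends on the scale. Expressed as counts per exon length scaled to a common total (TPM), 26 of the 39 members were lower and their median log2 ratio was -0.04, while the median of all genes was 0.08. Measured against the median of all genes, 29 members stood below it on CPM and 29 on TPM. On TPM the groups overlapped for Prdx2, Prdx3, Txn1 and Txn2, no member was lower without overlap, and Prdx6 joined Sod3 as higher without overlap. Gss, Pgd, Gpx4 and Gsta4 changed sign between the scales, each with a CPM-based log2 fold change no further from 0 than -0.05. The members are also short: 16 of 39 have a longest transcript of at most 1853 bases, which puts them in the shortest of 4 classes of about equal gene number. That class had a median log2 fold change of -0.09 against 0.03 in the class of longest genes. With offsets for length and GC content 31 members were lower, with a median of -0.10, and Prdx2 was no longer called (log2 fold change -0.19, edgeR adjusted p = 0.0847).

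**Figure D1:**
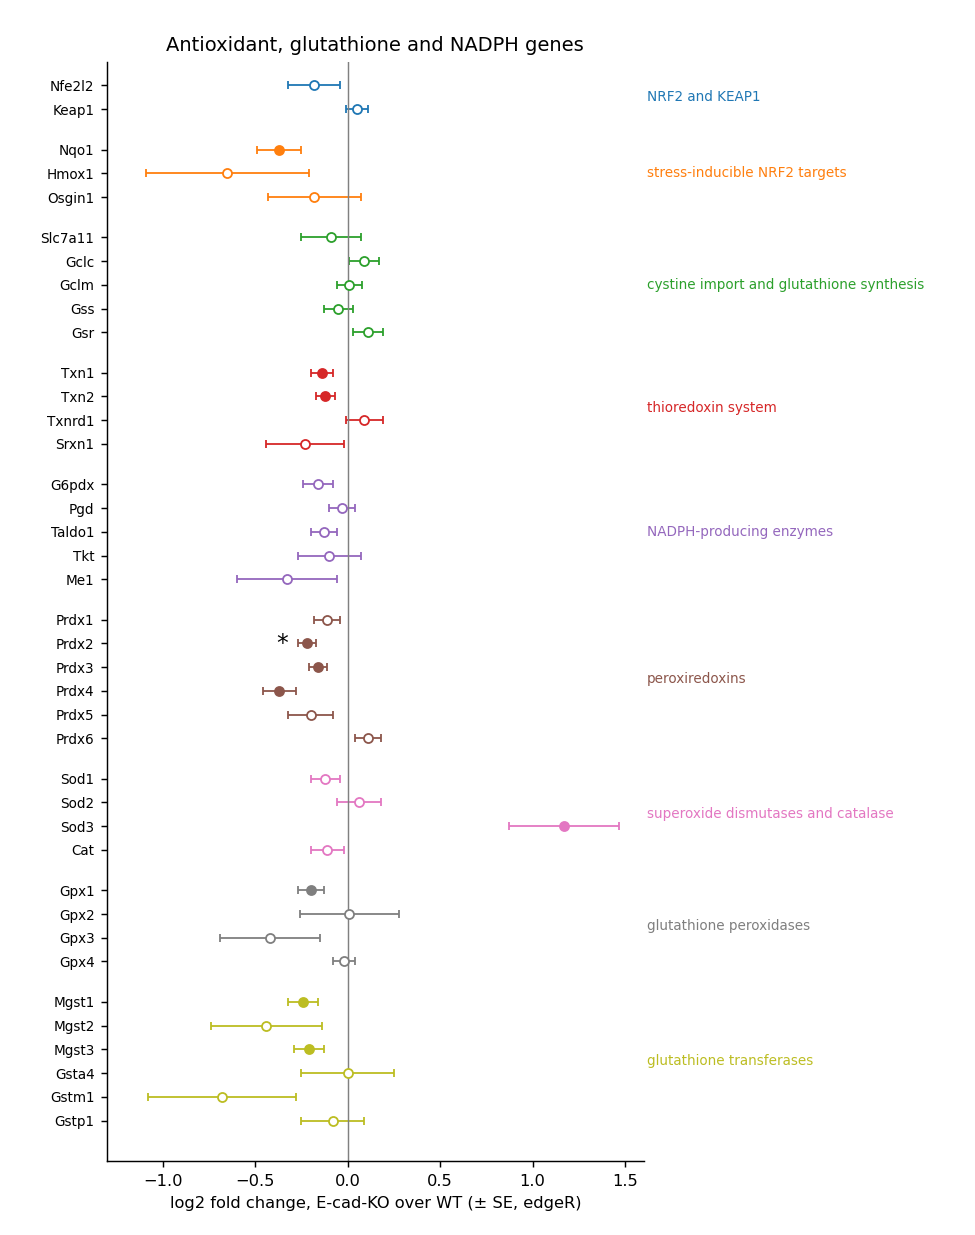
Log2 fold change of each of the 39 genes in E-cad-KO over WT on the x axis (dots, with bars of 1 SE from edgeR), grouped by role and coloured by group. Filled dots have an unadjusted p under 0.05 and the star marks the 1 call, Prdx2; most dots lie a little left of 0, and Sod3 stands alone on the right at 1.17.

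The regulators were measured first. Nfe2l2, which encodes NRF2, stood at 181.3, 163.2, 159.7 and 149.6 CPM in WT and at 146.3, 168.8, 171.1, 133.6 and 102.9 CPM in E-cad-KO. E-cad-KO 1, 4 and 5 lay below every WT library and E-cad-KO 2 and 3 within the WT range. The mean went from 163 ± 13.2 CPM (SD, n = 4) to 145 ± 28.1 CPM (SD, n = 5), a log2 fold change of -0.18 (SE 0.14, edgeR adjusted p = 0.567). Without E-cad-KO 5 it was -0.07. Keap1 held 37.8, 38.7, 38.4 and 33.8 CPM in WT and 37.4, 40.2, 40.9, 36.7 and 37.1 CPM in E-cad-KO, so that the groups overlapped (log2 fold change 0.05, SE 0.06, edgeR adjusted p = 0.747). Keap1 shares exon sequence on the other strand with Gm16754. The transcript level of NRF2 does not measure the protein, whose amount is set mainly by its breakdown.

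Of the 3 stress-inducible NRF2 targets, all were lower and 0 were called. Nqo1, which encodes the quinone reductase often used to read NRF2 activity, was at 266.2, 336.6, 321.8 and 276.0 CPM in WT and at 246.0, 279.4, 228.4, 176.1 and 227.8 CPM in E-cad-KO. All but E-cad-KO 2 lay below the lowest WT library. Its mean went from 300.2 ± 34.3 CPM (SD, n = 4) to 232 ± 37.4 CPM (SD, n = 5), a log2 fold change of -0.37 (SE 0.12, edgeR adjusted p = 0.159). Nqo1 spans 107388225 to 107403206 on chromosome 8, 0.718 Mb from Cdh1, so it is inherited close to the floxed or normal Cdh1 allele. An effect of the alleles at that locus and an effect of E-cadherin loss cannot be told apart for it in this design.

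Hmox1, the gene for haem oxygenase 1, was decided by 1 library. It held 46.4, 46.1, 56.7 and 204.8 CPM in WT and 58.2, 58.4, 56.8, 60.3 and 49.1 CPM in E-cad-KO. WT 4 stood 4.12 times above the mean of the other WT libraries, and those 3 lay below 4 of the 5 E-cad-KO values. Hmox1 had a log2 fold change of -0.65 (SE 0.44, edgeR adjusted p = 0.518), and without WT 4 it was 0.19. Haem oxygenase 1 is also abundant in macrophages, and WT 4 held the most macrophage marker RNA in sum, though the least Cd14 of all libraries. With the macrophage score as a covariate the Hmox1 log2 fold change was -0.29 (edgeR adjusted p = 0.693). Every gene of that score but Cd14 was highest in WT 4, so this fit cannot separate macrophage RNA from other traits of WT 4. The source of the Hmox1 value in WT 4 was not tested. Osgin1, a growth inhibitor gene induced by oxidative stress, was rare, between 1.74 and 3.53 CPM in all libraries (log2 fold change -0.18, and between -0.31 and -0.06 with 1 library left out).

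**Figure D2:**
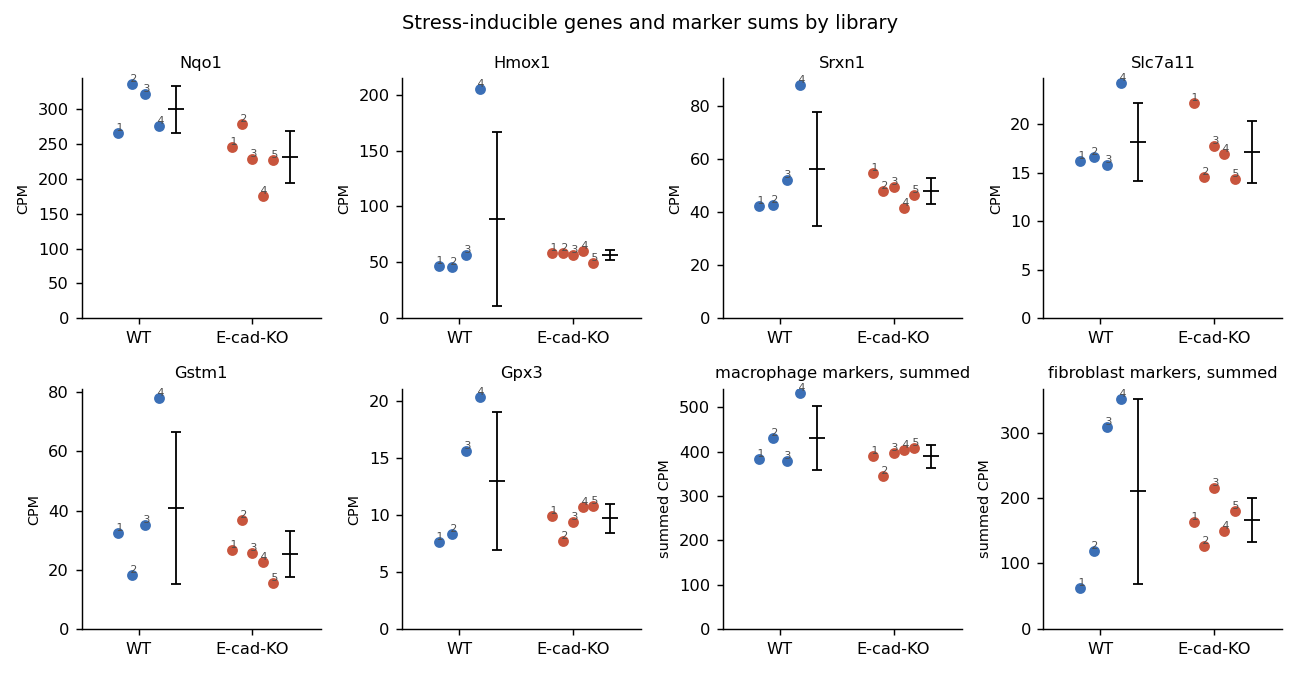
CPM of Nqo1, Hmox1, Srxn1, Slc7a11, Gstm1 and Gpx3 and the summed CPM of macrophage and fibroblast markers in each numbered library (blue, WT; red, E-cad-KO), with mean and SD beside the dots. WT 4 is the highest WT dot in every panel but Nqo1, reaching 204.8 CPM for Hmox1. Cd14 makes up most of the macrophage sum outside WT 4.

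No gene of cystine import and glutathione synthesis passed the test in either direction. Of the 5 genes 3 were higher and 2 lower, 0 were called and 0 had an unadjusted p under 0.05, and the median log2 fold change was 0.01. Slc7a11, the cystine transporter subunit that sets cysteine supply, was between 15.8 and 24.2 CPM in WT and between 14.3 and 22.2 CPM in E-cad-KO (-0.09, and 0.08 without WT 4, the highest library). Gclc, the catalytic subunit of glutamate-cysteine ligase, spanned 55.4 to 73.9 CPM in WT and 63.2 to 72.5 CPM in E-cad-KO (0.09). Its modifier subunit gene Gclm spanned 65.3 to 74.1 CPM in WT and 62.7 to 76.2 CPM in E-cad-KO (0.01). Gss, glutathione synthetase, was at -0.05 and Gsr, the reductase that recycles oxidised glutathione, at 0.11. Gclm and Gss overlap exons of genes on the other strand. The standard errors for these 5 genes ran no higher than the 0.16 of Slc7a11, and none of their log2 fold changes lay further than 0.11 from 0.

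In the thioredoxin system both thioredoxins were lower without overlap on the CPM scale. Txn1, the cytosolic electron donor of peroxiredoxins, held 565.2, 539.9, 527.6 and 525.8 CPM in WT and 482.0, 515.6, 512.2, 457.1 and 482.2 CPM in E-cad-KO. The highest E-cad-KO library reached 515.6 CPM and the lowest WT library 525.8 CPM, a narrow gap. Txn1 had a log2 fold change of -0.14 (SE 0.06, edgeR adjusted p = 0.237). Txn2, its mitochondrial counterpart, held 122.2, 126.8, 122.1 and 131.3 CPM in WT and 110.3, 109.4, 116.5, 120.9 and 119.1 CPM in E-cad-KO. Here too the groups lay side by side without crossing, with a log2 fold change of -0.12 (SE 0.05, edgeR adjusted p = 0.246). With length and GC offsets Txn1 was at -0.04 (edgeR adjusted p = 0.778) and Txn2 at -0.12 (edgeR adjusted p = 0.353). Txnrd1, the reductase that recharges thioredoxin with NADPH, went the other way at 0.09. Srxn1, sulfiredoxin, which rescues over-oxidised peroxiredoxins, was at 42.3, 42.6, 52.0 and 87.7 CPM in WT and between 41.4 and 54.8 CPM in E-cad-KO. Its log2 fold change was -0.23 with all libraries and 0.07 without WT 4. Of the 4 genes of this system 3 were lower, with a median of -0.13, and without WT 4 it was 2 with a median of -0.02.

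The 5 genes of the pentose phosphate pathway and malic enzyme were all lower on the CPM scale, 0 of them called, with a median log2 fold change of -0.13. On TPM Pgd was higher, at 0.06. G6pdx, glucose-6-phosphate dehydrogenase, the entry enzyme of the pentose phosphate pathway, was at 188.9, 202.3, 190.8 and 223.0 CPM in WT. In E-cad-KO it was at 191.7, 191.7, 190.4, 172.5 and 152.5 CPM, so 3 libraries lay within the WT range and 2 below it. This gave a log2 fold change of -0.16 (SE 0.08, edgeR adjusted p = 0.351; -0.10 without E-cad-KO 5), and G6pdx shares exon sequence with Ikbkg on the other strand. Taldo1, transaldolase of the non-oxidative branch, held 252.4, 230.0, 230.4 and 237.8 CPM in WT and 214.8, 228.6, 240.6, 214.5 and 186.3 CPM in E-cad-KO. E-cad-KO 3 exceeded 3 of the 4 WT libraries (log2 fold change -0.13, SE 0.07, edgeR adjusted p = 0.405; -0.07 without E-cad-KO 5). Pgd, the second dehydrogenase of the pathway, was at -0.03, and Tkt, transketolase, at -0.10. Me1, the cytosolic malic enzyme, was at -0.33 with a wide spread: 120.3 ± 35.8 CPM (SD, n = 4) for WT against 95.6 ± 30.7 CPM (SD, n = 5) for E-cad-KO. Tkt and Me1 were lowest of all libraries in WT 4, at 134.8 and 69.8 CPM. With 1 library left out Me1 ran from -0.53 (without E-cad-KO 2) to -0.19 (without WT 1) and Tkt from -0.26 (without WT 4) to 0.01 (without WT 1).

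Peroxiredoxins held the 1 gene that passed the test. Prdx2, an abundant cytosolic peroxidase, was at 479.6, 490.8, 481.4 and 476.7 CPM in WT and at 396.5, 408.6, 412.1, 418.0 and 429.2 CPM in E-cad-KO. The WT libraries lay within a few per cent of each other and every E-cad-KO library was below all of them. Prdx2 fell from 482 ± 6.08 CPM (SD, n = 4) to 413 ± 12.1 CPM (SD, n = 5), to 0.856 of WT, with a log2 fold change of -0.22 (SE 0.05, edgeR adjusted p = 0.0496). The call lies at the threshold: leaving out any 1 library ended it, WT 1 to 4 with edgeR adjusted p of 0.0819, 0.103, 0.134 and 0.056 and E-cad-KO 1 to 5 with 0.112, 0.0904, 0.12, 0.103 and 0.077. Over the 20 alternatives the Prdx2 log2 fold change stayed between -0.26 and -0.19, the adjusted p ran from 9.36e-07 to 0.2, and 6 alternatives called it. On TPM it stood at 396.8, 432.5, 439.1 and 447.4 in WT and at 388.5, 374.4, 374.7, 392.3 and 423.8 in E-cad-KO, where WT 1 lay below E-cad-KO 5.

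Prdx2 (ENSMUSG00000005161) spans 84969587 to 84974834 on the plus strand of chromosome 8, 21.6 Mb from Cdh1. Its exons overlap Junb and Rnaseh2a on the other strand, and whether counting used the strand is not given in the sources used here. Junb, an immediate early transcription factor gene, stood higher in E-cad-KO (log2 fold change 0.48, edgeR adjusted p = 0.194) and Rnaseh2a, a ribonuclease subunit gene, lower (-0.15, edgeR adjusted p = 0.333). Of the 50-base words of Prdx2 transcripts, 4.53% also occur in other genes.

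Prdx4, the peroxiredoxin of the endoplasmic reticulum, which passes oxidising power on to folding proteins, had the largest downward difference of the family. It held 126.3, 119.8, 127.5 and 92.5 CPM in WT and 86.1, 101.1, 88.0, 86.7 and 87.5 CPM in E-cad-KO. Only WT 4 and E-cad-KO 2 crossed. The mean went from 117 ± 16.4 CPM (SD, n = 4) to 89.9 ± 6.32 CPM (SD, n = 5), a log2 fold change of -0.37 (SE 0.09, edgeR adjusted p = 0.0814). Without WT 4 Prdx4 was called (log2 fold change -0.47, edgeR adjusted p = 0.0128), and with the macrophage score as a covariate it was called as well (-0.37, edgeR adjusted p = 0.0137). Over all genes these fits called 334 and 1113 in turn, against 244 with all libraries and no covariate. With length and GC offsets Prdx4 was at -0.27 (edgeR adjusted p = 0.197).

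Prdx3, the mitochondrial peroxiredoxin, was tight in WT at 106.2, 106.2, 106.3 and 110.9 CPM. In E-cad-KO it was at 95.2, 96.0, 91.0, 95.1 and 102.8 CPM, below every WT library (log2 fold change -0.16, SE 0.05, edgeR adjusted p = 0.124; with length and GC offsets -0.09, adjusted p = 0.344). Prdx5, found in several compartments, stood at 173.3, 156.6, 140.4 and 122.8 CPM in WT and at 112.8, 154.9, 143.2, 119.4 and 115.2 CPM in E-cad-KO. These groups overlapped widely (log2 fold change -0.20, SE 0.12, edgeR adjusted p = 0.456; -0.11 without WT 1), and Prdx5 shares exon sequence with Trmt112 on the other strand. Prdx1, the most highly expressed of the 39 genes per length, ranged from 1592.3 to 1992.9 CPM in WT and from 1599.0 to 1695.3 CPM in E-cad-KO (-0.11, and -0.04 without WT 4). Prdx6, which uses a single catalytic cysteine, was the only one of the 6 above 0, at 0.11. Across the family 5 of 6 were lower, 1 was called and 3 had an unadjusted p under 0.05, with a median log2 fold change of -0.18, and -0.19 without WT 4.

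**Figure D3:**
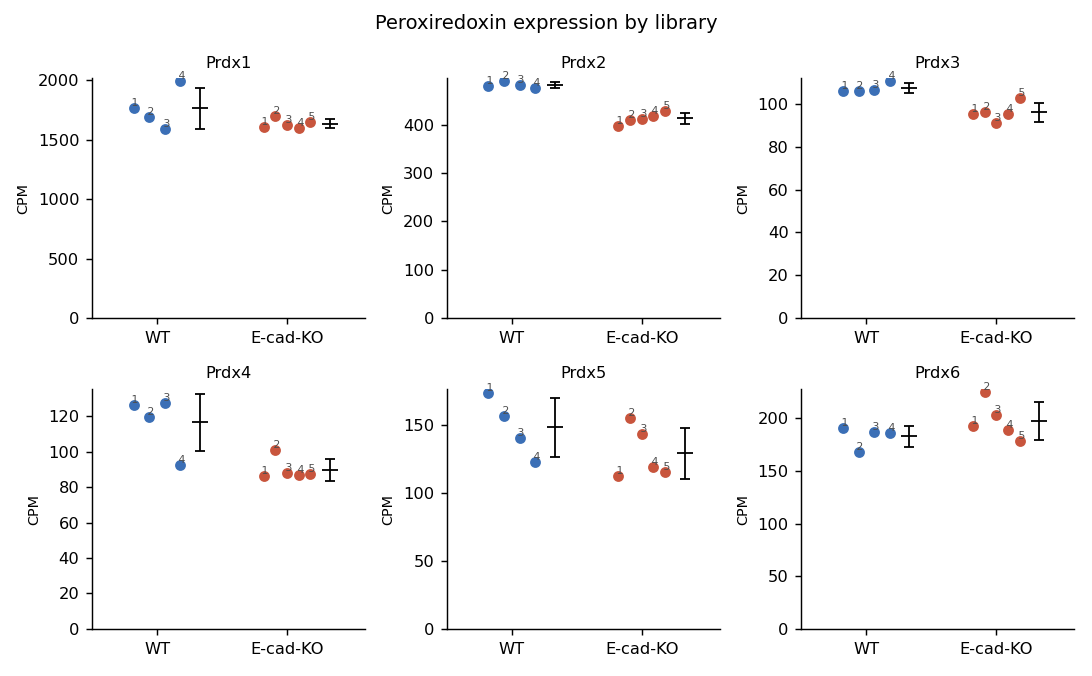
CPM of the 6 peroxiredoxin genes in each numbered library (blue, WT; red, E-cad-KO), with the mean and SD of each group and axes from 0. For Prdx2 and Prdx3 the 2 groups do not cross; for Prdx4 only WT 4, at 92.5 CPM, falls among the E-cad-KO values.

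Superoxide dismutases turn superoxide into hydrogen peroxide, and for 1 of the 3 genes the groups did not overlap. Sod3, the secreted form that binds the extracellular matrix, stood at 4.47, 8.46, 9.60 and 13.5 CPM in WT and at 27.3, 14.7, 23.5, 18.2 and 17.7 CPM in E-cad-KO. Every E-cad-KO library exceeded every WT library, with a narrow gap between WT 4 at 13.5 CPM and E-cad-KO 2 at 14.7 CPM. The mean went from 8.99 ± 3.7 CPM (SD, n = 4) to 20.3 ± 5.04 CPM (SD, n = 5), 2.25 times WT, with a log2 fold change of 1.17 (SE 0.30, edgeR adjusted p = 0.0865). This was the largest difference of the 39 genes, and it did not pass the test. Sod3 was called without WT 4 (1.43, edgeR adjusted p = 0.0468), with the macrophage score as a covariate (1.27, edgeR adjusted p = 0.0467), by limma-voom (1.27, adjusted p = 0.0354) and by DESeq2 (1.17, adjusted p = 0.000914). Over all genes these fits called 334, 1113, 509 and 1206 in turn, against 244 by edgeR with all libraries and no covariate. The other 16 of the 20 alternatives did not call Sod3. Its log2 fold change stayed between 0.95 and 1.43, and the adjusted p reached 0.189 with 1 library left out (WT 3) and 0.261 with the replicate block. Among WT libraries the lowest Sod3 was in WT 1 and the highest in WT 4, which also had the lowest and the highest sum of fibroblast markers, 62.8 and 352 CPM. The fibroblast sums of WT 1 and 2 lay below all 5 E-cad-KO libraries and those of WT 3 and 4 above them (210.4 ± 141 CPM for WT, SD, n = 4; 167 ± 33.7 CPM for E-cad-KO, SD, n = 5). Of the 8 fibroblast markers 2 were higher, the collagen genes Col1a1 at 0.22 and Col1a2 at 0.33. The other 6 were lower, down to -0.96 for Lum, and 0 were called. The part of fibroblast RNA in the Sod3 value was not tested.

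The genes for the intracellular dismutases lay closer to WT. Sod1, of the cytosol, spanned 199.4 to 259.9 CPM in WT and 198.4 to 221.6 CPM in E-cad-KO (log2 fold change -0.12, and -0.04 without WT 4). Sod2, of mitochondria, spanned 129.8 to 199.6 CPM in WT and 153.2 to 196.0 CPM in E-cad-KO (0.06, and -0.05 without WT 4, its lowest library). Cat, catalase, which removes the hydrogen peroxide they make, was at -0.11. That the Sod3 difference departs from those of Sod1 and Sod2 was not tested.

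**Figure D4:**
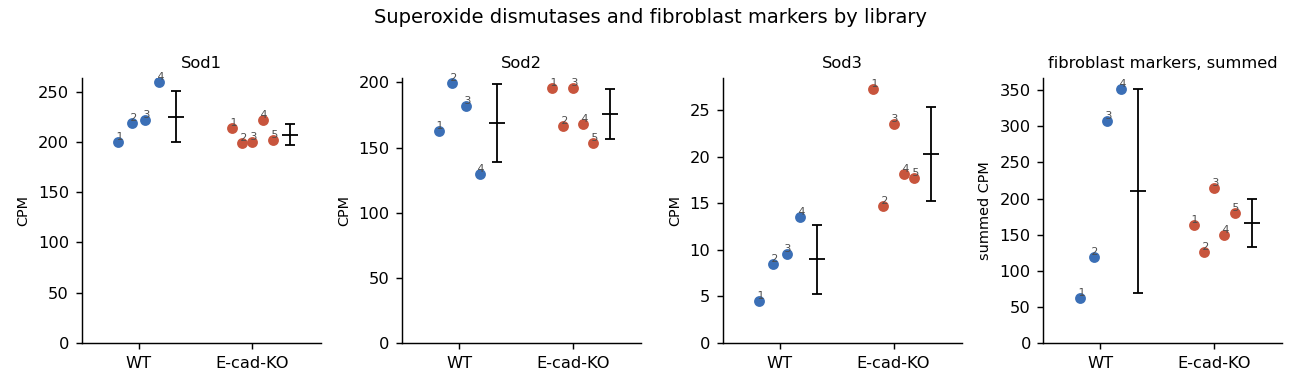
CPM of Sod1, Sod2 and Sod3 and summed CPM of 8 fibroblast markers in each numbered library (blue, WT; red, E-cad-KO), with mean and SD, axes from 0. Only for Sod3 do the groups separate, from at most 13.5 CPM in WT to at least 14.7 CPM in E-cad-KO; fibroblast sums spread most within WT.

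Of the 4 glutathione peroxidases 3 were lower and 0 were called. Gpx1, the main hydrogen peroxide-reducing form, held 649.8, 763.4, 751.0 and 739.1 CPM in WT and 685.4, 618.7, 660.5, 633.0 and 562.7 CPM in E-cad-KO. WT 1 fell among the E-cad-KO values and the other 3 WT libraries lay above them all (log2 fold change -0.20, SE 0.07, edgeR adjusted p = 0.204). Gpx4, which reduces lipid peroxides in membranes and guards against ferroptosis, was nearly level, from 390.1 ± 10.5 CPM (SD, n = 4) to 385 ± 29.5 CPM (SD, n = 5). A share of 34.7% of its 50-base words also occurs in other genes, mainly Gpx4-ps2, so its counts are uncertain; Gpx4-ps2 itself held at most 1121 counts in a library. Gpx3, a secreted form, was at 7.68, 8.32, 15.6 and 20.4 CPM in WT and between 7.72 and 10.8 CPM in E-cad-KO; its log2 fold change of -0.42 became -0.12 without WT 4. Gpx2, the form of gut epithelium, was at 0.01 with 4.56 to 10.8 CPM in all libraries.

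All 6 glutathione transferases were lower or level, 0 of them called, with a median log2 fold change of -0.23. Without both WT 1 and WT 4 the median was -0.14 with 4 of 6 lower, and with length and GC offsets -0.14 with 5 of 6 lower. These enzymes attach glutathione to electrophiles. Mgst1, a membrane-bound form and the fourth most highly expressed of the 39 genes per length, stood at 713.8, 629.1, 647.9 and 608.8 CPM in WT and at 535.6, 635.1, 517.3, 527.1 and 533.4 CPM in E-cad-KO. E-cad-KO 2 lay within the WT range and the other 4 below it (log2 fold change -0.24, SE 0.08, edgeR adjusted p = 0.144). Mgst3, of the same family, showed the same arrangement with 43.0, 40.3, 41.2 and 35.3 CPM in WT and 33.0, 40.5, 34.4, 32.4 and 32.2 CPM in E-cad-KO (log2 fold change -0.21, SE 0.08, edgeR adjusted p = 0.234). With the offsets Mgst1 was at -0.14 and Mgst3 at -0.13. Mgst2, the rarest, was at -0.44, and at -0.18 without WT 1, its highest WT library. Gstm1, a soluble mu-class form, held 32.3, 18.2, 35.1 and 77.9 CPM in WT and 26.7, 36.9, 25.7, 22.6 and 15.4 CPM in E-cad-KO. Its log2 fold change of -0.68 (SE 0.40, edgeR adjusted p = 0.435) was the lowest of all members and went to -0.16 without WT 4. Gsta4, which clears the lipid peroxidation product 4-hydroxynonenal, was at -0.00 and Gstp1, the pi-class form, at -0.08. Gstp1 and Gstm1 share 33.7% and 18.9% of their 50-base words with other genes, mainly Gstp2 and Gstm2-ps1, which held at most 31 and 2 counts in a library. How reads that match several genes were counted is not given in the sources used here.

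Per exon length the members spanned a wide range in WT. Prdx1 led with 1572 ± 202 TPM (SD, n = 4), above Txn1 with 1391 ± 31.4 TPM and Gpx1 with 1370 ± 156 TPM in each of the 4 WT libraries. Txn1 and Gpx1 changed order between libraries: Gpx1 was below Txn1 in WT 1 and above it in WT 2, 3 and 4. Mgst1 followed at 874 ± 26.5 TPM, apart from its neighbours in the order. Gpx4 at 614 ± 35.7 TPM stood above Nqo1 at 525 ± 70.1 TPM in each of the 4 WT libraries, and Prdx2 came next at 429 ± 22.3 TPM. At the other end were Mgst2 (6.8 ± 1.93 TPM), Sod3 (6.64 ± 3.01 TPM), Gpx2 (6.31 ± 1.86 TPM), Slc7a11 (3.57 ± 0.948 TPM) and Osgin1 (3.02 ± 0.797 TPM). In E-cad-KO Sod3 reached 15.7 ± 4.12 TPM (SD, n = 5), about the level of Gpx3 there (15.5 ± 2.35 TPM). Summed over the 39 genes, WT libraries held 9165 to 10534 TPM and E-cad-KO libraries 8758 to 9719 TPM, with overlap. The lengths used merge all annotated exons of a gene, so a gene with long exons that are seldom used is understated.

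**Figure D5:**
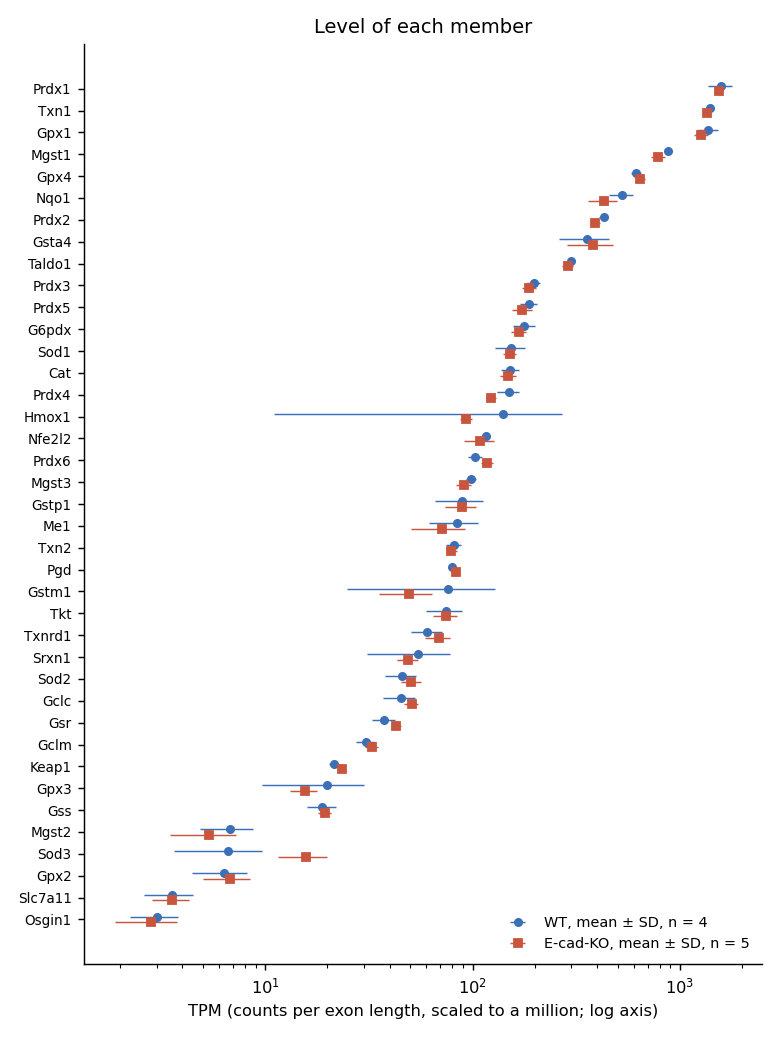
Mean level of each of the 39 genes in TPM (log axis) with SD, WT as blue circles (n = 4) and E-cad-KO as red squares (n = 5), ordered by the WT mean from Prdx1 at 1572 to Osgin1 at 3.02. The 2 marks nearly coincide for most genes, and Sod3 shows the widest gap, 6.64 against 15.7.

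Beyond these genes, 113 others of the same pathways were examined, of which 109 were tested. Of these, 43 were higher and 66 lower, 0 were called by edgeR, and 11 higher (10.1%) and 14 lower (12.8%) had an unadjusted p under 0.05, against 8.74% and 7.99% of all genes, with a median log2 fold change of -0.07. DESeq2 called 12 of them, where it called 8.46% of the 14256 genes to which it gave an adjusted p, and limma-voom 4, where it called 2.94% of all genes. NRF2 partners and turnover genes leaned upward, 8 of 9 with a median of 0.11. The small MAF genes Mafk and Maff, whose proteins pair with NRF2 on DNA, were at 0.33 (SE 0.08, edgeR adjusted p = 0.0633) and 0.56 (SE 0.14, edgeR adjusted p = 0.0809), each without overlap between groups. Nfe2l1, the related factor NRF1, went from 261 ± 30.4 CPM (SD, n = 4) to 324 ± 19.9 CPM (SD, n = 5), a log2 fold change of 0.31 (edgeR adjusted p = 0.0901). Other NRF2 targets leaned downward, 12 of 15 with a median of -0.23. Both biliverdin reductase genes were among them, Blvra at -0.24 (edgeR adjusted p = 0.058) and Blvrb at -0.51 (edgeR adjusted p = 0.0694). The aldo-keto reductase gene Akr1b8 was also lower, at -0.37. For Fth1, Ftl1, Abcc4, Aox1, Cbr3 and Ephx1, all lower, WT 4 stood 1.3 to 2.96 times above the mean of the other WT libraries. For the other lower targets of this list that ratio was 0.818 to 1.16. The count of 12 was not examined without WT 4.

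Among other glutathione and cystine genes 11 of 17 were higher, with a median of 0.07. Cth, cystathionine gamma-lyase, which makes cysteine from cystathionine, went from 8.21 ± 2.39 CPM (SD, n = 4) to 14 ± 1.36 CPM (SD, n = 5), a log2 fold change of 0.77 (SE 0.17, edgeR adjusted p = 0.0574). The call for Cth depended on the setting: 7 of 20 alternatives made it, among them the fit without WT 2 (0.99, edgeR adjusted p = 0.0187). Glo1, glyoxalase 1, was at -0.20 and the glutaredoxin gene Glrx5 at 0.16. Of 17 further glutathione transferases tested, 16 were lower with a median of -0.22, the same direction as the 6 above. Gsta1, Gsta2, Gsto2, Gstp2 and Gstm6 were rare, with WT means of at most 1.12 CPM. WT 4 stood 1.86 to 3.33 times above the mean of the other WT libraries for Gsta2, Gsta3, Gstm2 and Gstm7. It stood at 0.515 to 0.66 of that mean for Gstt1, Gstt2, Gstt3, Gstk1 and Gsto1. The count of 16 was not examined without WT 4. On mean TPM Gstt1, Gstt3 and Gstcd turned higher, with CPM-based log2 fold changes of -0.07, -0.05 and -0.00. Gsto1 was higher on both scales. Gstm5 went from 69.5 ± 4.2 CPM (SD, n = 4) to 57.7 ± 2.98 CPM (SD, n = 5) without overlap (log2 fold change -0.27, edgeR adjusted p = 0.0567), and Gstz1 was at -0.22. Gsta3 was at -0.88 (edgeR adjusted p = 0.282), with 1.41 to 8.14 CPM in all libraries and -1.14 to -0.46 over the alternatives. Gstm5 and Gstz1 overlap genes on the other strand.

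Other thioredoxin genes were lower for 10 of 13 (median -0.07), with the methionine sulfoxide reductase genes Msra at -0.35 and Msrb3 at 0.51 and the sestrin gene Sesn2 at 0.26. Other NADPH genes were divided, 9 higher and 10 lower (median -0.00): the mitochondrial malic enzyme gene Me3 was at 0.57, the cytosolic isocitrate dehydrogenase gene Idh1 at -0.29 and the folate enzyme gene Aldh1l2 at -0.21. NADPH oxidases, which consume NADPH to make superoxide or hydrogen peroxide, were lower for 9 of the 11 tested (median -0.21). Nox4, which releases mainly hydrogen peroxide, went against them, from 28.3 ± 8.03 CPM (SD, n = 4) to 49.4 ± 9.97 CPM (SD, n = 5) without overlap, a log2 fold change of 0.80 (SE 0.22, edgeR adjusted p = 0.11). The oxidase partner genes Noxo1 and Noxa1 were at -0.30 and 0.77, the latter on only 3 to 21 counts a library and between 0.48 and 1.92 over 19 alternatives. ATF4 pathway genes were higher for 6 of 8 (median 0.08), with Cebpb at 0.45 and the serine synthesis genes Psat1 at -0.36 and Phgdh at 0.14.

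Position and annotation limit some members. Nqo1, Osgin1, Prdx2, Hmox1 and Gsr lie on chromosome 8 as Cdh1 does, 0.718, 12.8, 21.6, 31.5 and 72.9 Mb from it, and for them linkage to the floxed alleles and loss of E-cadherin cannot be told apart. Exons of 7 members overlap a gene on the other strand: Prdx2, Keap1, Gclm, Gss, G6pdx, Me1 and Prdx5. Besides Gpx4, Gstp1 and Gstm1, Me1 (22.9%), Sod2 (21%) and Prdx1 (8.29%) share the largest parts of their 50-base words with other genes.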

How the data were processed

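Raw counts per gene were deposited for 9 libraries, with no normalisation. They were made with TopHat2, Bowtie2 and HTSeq on GRCm38, per the submitters' processing notes. What versions and settings they had, or how counting used strand, is not given in the sources used here. Per the labels' protocols, whole gels were frozen and stranded mRNA libraries were made, so RNA of any other cells in the gel is counted. Of 51912 rows, 51633 had a symbol, and the 279 others held 0.0449% to 0.0534% of a library's counts. In the smallest library 1 CPM was 44.9 counts. No 2 libraries agreed within sampling noise (smallest chi-square per degree of freedom 13.7).

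Differences were tested by edgeR 4.0.16 (R 4.3.3) with its quasi-likelihood F-test, filterByExpr, TMM factors, robust dispersions and a model of group alone, with Benjamini-Hochberg adjustment over 17289 genes. A call is an adjusted p under 0.05, and p-values are two-sided. The SE is the log2 fold change divided by the square root of F. TPM was computed from the counts and merged exon lengths of GENCODE M21. Alternatives used DESeq2 1.42.0 and limma 3.58.1 (voom with quality weights), other size factors and filters, left-out libraries, a replicate block and a macrophage score of 9 genes as covariate. The score included Cd14. Length and GC offsets were chosen after seeing the data. The routines were tested on simulated data.

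The members and lists were chosen with earlier results of these data known. Values in every library are given for the called members, for the next by unadjusted p until 14 were described, and for Nfe2l2, Keap1, Nqo1 and Hmox1. From the other lists up to 3 genes by smallest p are named. Library values of further members are given where a single library decides them.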

Additional observations from a re-analysis of the deposited data

Results flagged for a closer look

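In 7 of 78 groups of libraries (39 genes in WT and in E-cad-KO), 1 library lay far from the rest by Dixon's criterion, which chance meets in about 1 group in 20. WT 4 was the distant library for 3 genes: Hmox1 at 204.8 CPM, Slc7a11 at 24.2 CPM and Prdx3 at 110.9 CPM. Prdx3 is a small departure, since the other 3 WT libraries lay between 106.2 and 106.3 CPM. E-cad-KO 2 was the distant library for another 3, each time towards the WT values: Prdx4 at 101.1 CPM, Mgst1 at 635.1 CPM and Mgst3 at 40.5 CPM. WT 1 stood out for Gsta4 at 251.8 CPM.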

How the results depend on the processing

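The number of members called was 1 with edgeR and TMM factors, with median-of-ratios factors and with a filter of 1 CPM in 4 libraries. It was 2 with upper-quartile factors, 5 with DESeq2, 3 with limma-voom and 3 with the macrophage score as covariate. It was 0 with a filter of at least 1 count, with non-robust dispersions and with length and GC offsets, and between 0 and 2 with 1 library left out. Over all 17289 genes tested, the count of 244 (1.41%) became 274 with upper-quartile factors, 509 (2.94%) with limma-voom and 1113 with the macrophage score. With DESeq2 it became 1206, which is 8.46% of the 14256 genes given an adjusted p. The count was 79 without both WT 1 and WT 4, and between 9 and 334 with 1 library left out. With upper-quartile factors the split of calls was 123 higher and 151 lower, against 157 higher and 87 lower. Of the other pathway genes, 0 were called by edgeR, 2 with upper-quartile factors, 1 with the filter of at least 1 count, 3 with the filter of 1 CPM in 4 libraries, 12 with DESeq2, 4 with limma-voom, 13 with the macrophage score, 1 with the offsets and between 0 and 2 with 1 library left out. The cause of these differences was not tested.

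The replicate numbers are shared by 4 pairs of libraries. The correlation of their deviations from the group means ran from -0.324 to 0.284. Only 1 of E-cad-KO 1 to 4 correlated best with the WT library of its own number. The labels do not name the animals, and these correlations cannot decide whether equal numbers mark samples that belong together. With the replicate number as a block, which drops E-cad-KO 5, 0 genes, 0 members and 0 other pathway genes were called, and 17031 genes were tested.

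The number of members lower ran from 27 to 32 over all settings. Of the 39 log2 fold changes, 26 kept their sign in all 20 alternatives and 13 did not, all but Hmox1 and Srxn1 of them within 0.11 of 0. Without WT 4, Hmox1 was at 0.19, Slc7a11 at 0.08, Gss at 0.04, Srxn1 at 0.07, Sod2 at -0.05, Gpx2 at -0.00 and Gstp1 at 0.07. Without both WT 1 and WT 4, Hmox1 was at 0.14, Slc7a11 at 0.08, Gclm at -0.01, Gss at 0.01, Gsr at -0.02, Srxn1 at 0.02, Sod2 at -0.11, Gsta4 at 0.22 and Gstp1 at 0.11. Without WT 1, Gclm was at -0.02, Tkt at 0.01 and Gsta4 at 0.26, and without WT 3, Gpx2 was at -0.17. Without 1 E-cad-KO library, Gclm was at -0.01 or -0.00, Gpx2 at -0.13 or -0.06, Gpx4 at 0.03, and Gsta4 at 0.07 or 0.09 in the fits that turned its sign. Over the 9 fits that leave out 1 library, Hmox1 ran from -0.86 to 0.19, Slc7a11 from -0.19 to 0.08, Gclm from -0.02 to 0.06, Gss from -0.09 to 0.04, Srxn1 from -0.34 to 0.07 and Tkt from -0.26 to 0.01. Sod2 ran from -0.05 to 0.15, Gpx2 from -0.17 to 0.24, Gsta4 from -0.14 to 0.26 and Gstp1 from -0.18 to 0.07. With upper-quartile factors Gclm and Gpx2 were at -0.03. With the offsets Keap1 was at -0.03, Gclm at -0.00 and Gsta4 at 0.09. With limma-voom Slc7a11 was at 0.04 and Gsta4 at 0.03, and with median-of-ratios factors and DESeq2 Gsta4 was at 0.00. With the block Gpx4 was at 0.03 and Gsta4 at 0.08, and with the macrophage score Gpx2 was at -0.02. Of the 27 members further than 0.1 from 0, 17 moved by over 1.5 times or turned sign when some 1 library was left out. Depth limits the rare members most: Osgin1 had 77 to 215 counts in a library, Mgst2 223 to 816 and Sod3 263 to 1553.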
